A study of Rattus norvegicus with 10 samples.

Results

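The genes described here are 34 interferon-responsive genes of the rat, taken as a fixed list: 18 induced antiviral effectors, 3 RNA sensors, 5 genes of ubiquitin-like modification and ADP-ribosylation, and 8 transcription factors. Their array features were found by matching the RefSeq transcript of each feature to the gene. Of the 34 genes, 32 had a feature on the array, with 36 features in all, and 29 genes with 33 features were measured above background and tested, out of 11556 tested genes. Ddx58 and Herc6 were not matched.

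The samples were total RNA from testes of male rat pups on postnatal day 6, hybridised to 10 one-colour Agilent arrays, 1 array for each sire code. The pups were a cross of Brown Norway fathers with Sprague Dawley mothers. Their fathers had been given saline (5 sires) or BEP (5 sires) during 9 weeks and had then recovered during 9 weeks, and the pups themselves are not described as treated. BEP usually stands for bleomycin, etoposide and cisplatin, drugs that are not named in the labels. A letter in the sire code, C or T, divides the arrays into groups of 5. C is read here as saline and T as BEP, which no label states. The labels do not say how many pups or litters were pooled for an array, so p-values measure only the spread between these arrays.

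Interferons are cytokines that cells release when they sense foreign nucleic acid. Type I interferons bind a receptor whose kinases phosphorylate Stat2, which joins Irf9 in a complex that binds a short promoter sequence, the interferon-stimulated response element (ISRE). Interferon gamma acts through a further promoter sequence, the gamma-activated site (GAS). The genes switched on in this way block virus entry, copying and translation. In the testis, the interstitial macrophages, Sertoli cells and Leydig cells are known to be able to mount such responses, while germ cells are known for weak ones.

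The promoters of the listed genes were searched for both elements. The ISRE was written as TTTCNNTTTC or, for the other strand, GAAANNGAAA, and the GAS as TTCNNNGAA, which reads the same on both strands. The windows reached from 250 bases before to 50 bases after the RefSeq transcription start of the GRCr8 assembly, and 25 of the 34 genes had one. An ISRE match lay in 14 of these 25 windows (56.0%), compared with 3.92% of all 33469 windows. A GAS match lay in 7 (28.0%), compared with 8.87% of all windows, and 4 windows held both. In Bst2, Ifi27 and Oas1a the window held 2 ISRE matches each. Those of Bst2 (from base -131 and from base -125) overlapped each other, as did those of Oas1a (from base -41 and from base -35), and the GAS match of Bst2 overlapped the first of its ISRE matches. The 17 ISRE matches began between 169 and 16 bases before the start, and 12 of them lay within 100 bases of it. A match is a description of letters and not evidence of binding. The following lines give 40 bases around 1 match in each of 8 genes whose array values are described later, 5′ to 3′ on the strand of the gene, with that match in capitals and positions counted from the start. For Bst2 and Oas1a the match nearer to the start is marked, and the other is left in lower case.

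Isg20, chr1:142239952-142239991, plus strand, element from base -92 to base -83: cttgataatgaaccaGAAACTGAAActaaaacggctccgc
Ifit3, chr1:241527267-241527306, plus strand, element from base -44 to base -35: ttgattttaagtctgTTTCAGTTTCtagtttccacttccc
Oas1a, chr12:41330416-41330455, plus strand, element from base -35 to base -26: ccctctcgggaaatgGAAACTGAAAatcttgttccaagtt
Bst2, chr16:18255068-18255107, minus strand, element from base -125 to base -116: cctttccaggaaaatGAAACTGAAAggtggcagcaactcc
Rsad2, chr6:48788243-48788282, minus strand, element from base -147 to base -138: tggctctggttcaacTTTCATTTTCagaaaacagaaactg
Oasl2, chr12:47383312-47383351, minus strand, element from base -151 to base -142: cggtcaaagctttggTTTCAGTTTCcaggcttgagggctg
Ifih1, chr3:67684003-67684042, minus strand, element from base -59 to base -50: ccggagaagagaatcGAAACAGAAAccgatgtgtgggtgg
Irf7, chr1:205800068-205800107, minus strand, element from base -69 to base -60: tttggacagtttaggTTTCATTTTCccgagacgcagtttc

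The pair of matches in the window of Ifi27 did not overlap, and the array values of this gene fell at 2 separate levels. Its whole window is shown with both matches in capitals. Any relation between the matches and those levels was not tested.

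Ifi27, chr6:128355062-128355361, plus strand: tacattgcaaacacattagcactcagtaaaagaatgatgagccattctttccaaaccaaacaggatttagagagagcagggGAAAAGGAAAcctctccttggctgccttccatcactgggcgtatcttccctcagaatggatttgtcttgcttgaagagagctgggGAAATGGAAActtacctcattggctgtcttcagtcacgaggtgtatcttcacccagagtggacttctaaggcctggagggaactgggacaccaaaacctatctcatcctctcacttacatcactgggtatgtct

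**Figure D1:**
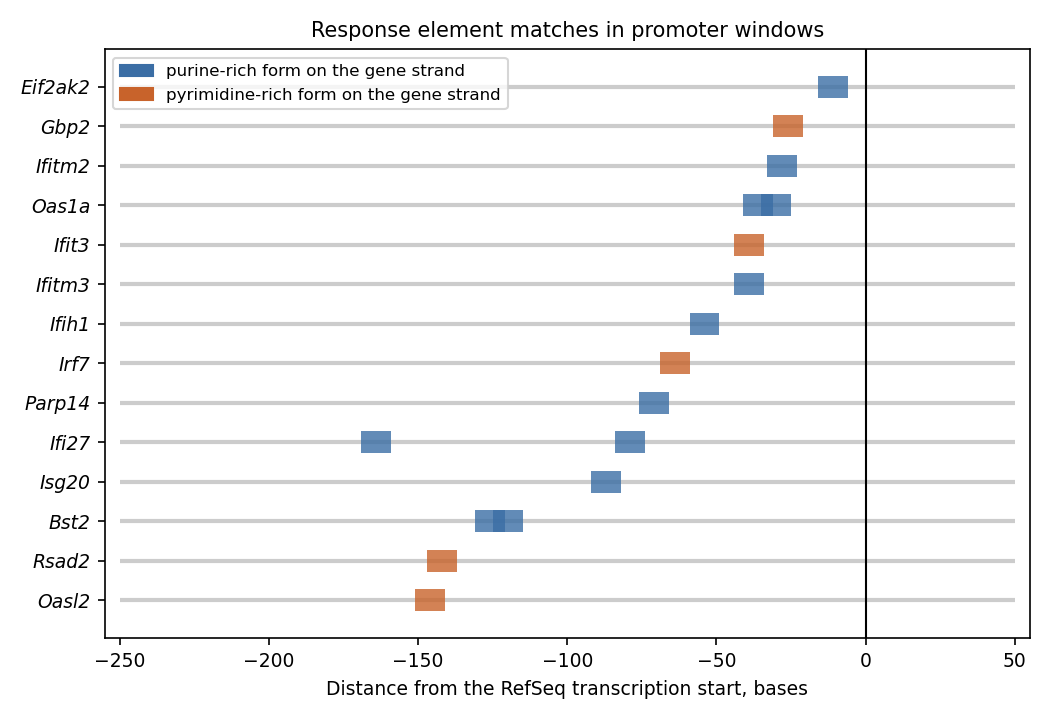
Positions of the ISRE matches in the 14 promoter windows that hold one, as distance in bases from the RefSeq start (vertical line). Grey lines are the windows, blue bars matches in the purine-rich form on the strand of the gene and orange bars the pyrimidine-rich form; all 17 lie before the start, the nearest 16 bases from it (Eif2ak2) and the farthest 169 bases (Ifi27).

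Levels are given as relative log2 signal, that is, the log2 of the scanner's background-subtracted signal minus the 75th percentile of the array. That percentile ran from 1525 units on C replicate 1 to 2686 units on C replicate 3. Values of any pair of arrays correlated at 0.9899 to 0.9966 over the tested features, and no spot was saturated. Of the C arrays 3 were on slide 1 and 2 on slide 2, and of the T arrays 2 and 3. The tissue label could be checked: all 9 matched Sertoli cell markers, all 9 germ cell markers and 6 of 7 Leydig cell markers were above background. Of the 36 features of the interferon list, 32 were well above background on all 10 arrays. The brightness of a feature depends on its sequence, so levels of different genes are not set against each other. Members of the Ifitm, Oas, Mx and Ifit families are similar in sequence, and how far a feature of such a gene also reads its relatives is uncertain.

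The genes that did not pass the filter on dim features were Ifit1, Oasl and Irf8. Ifit1, which binds viral RNA ends, was well above background on 1 of 10 arrays, T replicate 1. Oasl, an inactive relative of the oligoadenylate synthetases, passed that limit on 3 arrays, 1 of them C and 2 of them T. Irf8, a factor of macrophages and dendritic cells, was well above background on 0 of 10 arrays. For these 3 genes the arrays give no difference between the groups.

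Most of the other genes varied little between arrays. The range over the 10 arrays had a median of 0.461 log2 units over the 29 genes and of 0.448 over all tested genes. It was under 0.5 in 15 of the 29 genes. It reached 1, a 2-fold span, in 3 genes (10.3%), compared with 10.2% of all tested genes. The spread between spots of the same feature on an array had a median of 0.0772 (SD) over the 26 genes with more than 1 spot. In 7 of these it was at least as large as the spread between arrays. The array values average a feature's spots, so they carry less than this single-spot spread.

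**Figure D2:**
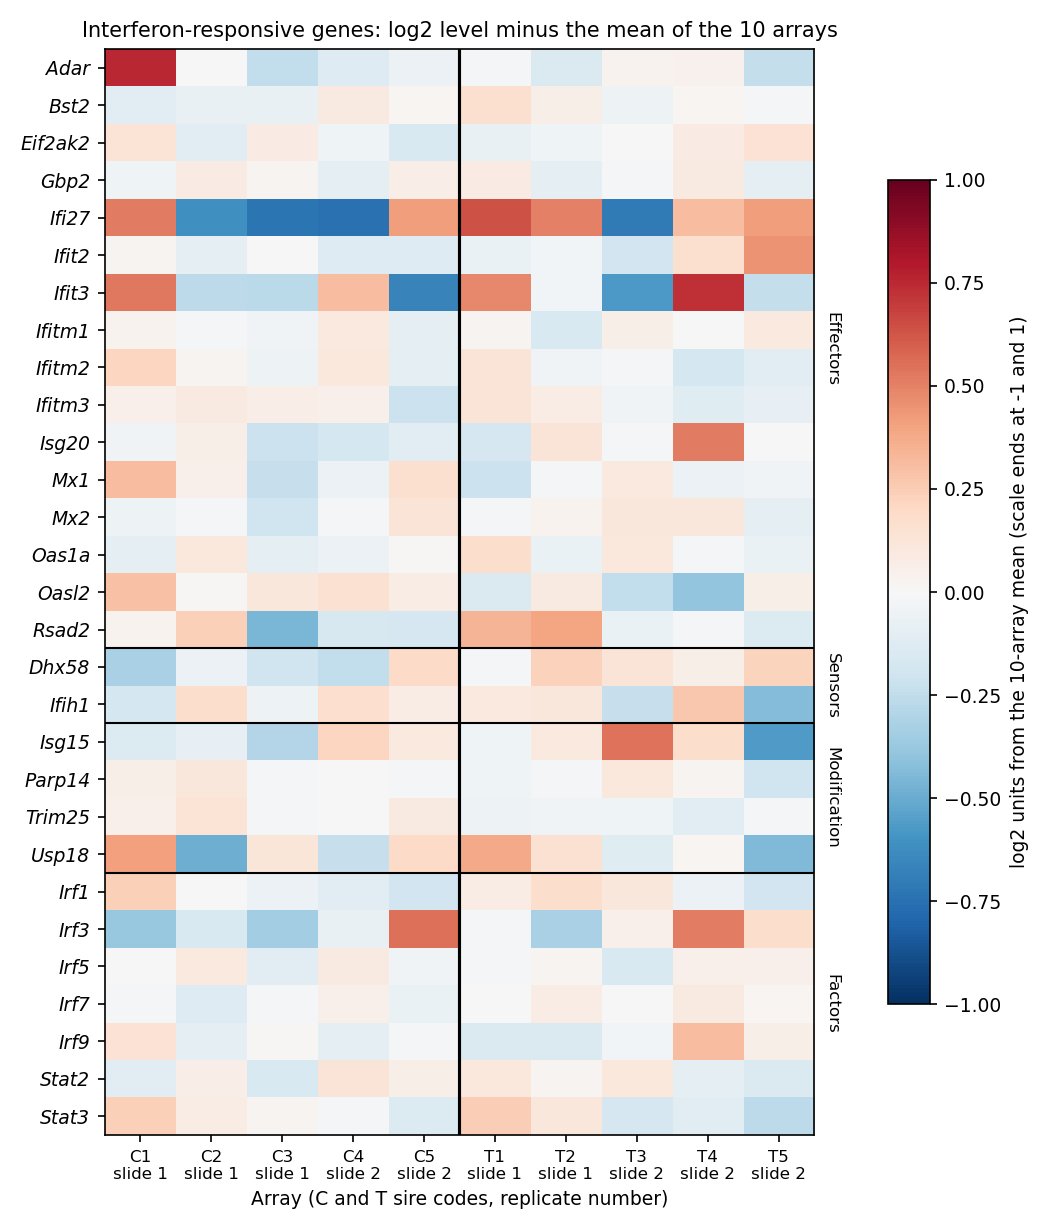
Relative log2 level of the 29 tested genes (rows, by role) on the 10 arrays (columns, with their slide), each as the distance from the mean of that gene over the arrays. Colours run from -1 (blue) to 1 (red) log2 units; Ifi27 shows strong colours in both directions, and most other rows stay pale.

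Among the effectors, the membrane proteins Ifitm1, Ifitm2, Ifitm3 and Bst2 varied little between arrays. Ifitm2, from a family that blocks virus entry, read 88200 to 128000 units. Its relative level was 5.85, 5.66, 5.58, 5.74 and 5.54 on the C arrays and 5.76, 5.60, 5.62, 5.46 and 5.52 on the T arrays. The groups overlapped almost entirely, with a difference (T minus C) of -0.079 ± 0.080 (SE, 5 arrays per group). Bst2, or tetherin, which holds budding viruses at the cell surface, lay at 4.87, 4.91, 4.91, 5.07 and 5.00 on the C arrays. On the T arrays it lay at 5.14, 5.04, 4.93, 5.00 and 4.96, a difference of 0.064 ± 0.063. Ifitm1 lay at 3.28, 3.23, 3.21, 3.34 and 3.15 on the C arrays and at 3.27, 3.09, 3.30, 3.24 and 3.34 on the T arrays, a difference of 0.0053 ± 0.064. Each of these 3 genes spanned 0.39 log2 units or less over the 10 arrays. Ifitm3 was equally narrow on 4 C arrays (1.72 to 1.76), with C replicate 5 apart at 1.46.

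Ifi27, a small membrane protein that is strongly induced by type I interferon, had a wider range. It lay at 3.10, 1.97, 1.85, 1.84 and 3.00 on the C arrays and at 3.22, 3.09, 1.88, 2.89 and 3.00 on the T arrays. The values formed 2 separate levels: 6 arrays lay between 2.89 and 3.22 and 4 arrays between 1.84 and 1.97. The gap of 0.92 log2 units between them is a 1.9-fold step, whereas the range was 0.33 within the upper level and 0.13 within the lower. The spread between spots of the feature was 0.0739 (SD). The upper level held 2 C and 4 T arrays, and each slide carried 3 arrays of the upper and 2 of the lower level. A gap of at least 0.8 between neighbouring arrays, a size chosen after this gene had been seen, occurred in no other gene of the list and in 1.34% of all 11552 genes with a value on every array. The T minus C difference was 0.46 ± 0.33 (95% interval -0.26 to 1.19, two-sided exact permutation p = 0.278). It was 0.70 without T replicate 3, 0.848 within slide 1 and 0.169 within slide 2.

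Genes beside Ifi27 in the RefSeq order did not repeat its pattern. Over the 10 arrays its correlation was -0.0622 with Ddx24, the gene before it, and 0.0539 with Ifi27l2b, the related gene after it. It was -0.00393 with Otub2 and 0.0874 with Ppp4r4, the next measured genes outwards. Serpina1, 10 places away, gave 0.646 and Asb2, 4 places away on the other side, gave -0.436. Over all genes the highest correlations were with Zfp105 (0.863) and Ltk (0.852), and the lowest with Usp42 (-0.933) and Jpt1 (-0.915). These are descriptions of rank over 10 arrays with no test.

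Ifit3, a partner of Ifit1, lay near the background, being well above it on 2 C and 3 T arrays. Its values were -6.72, -7.51, -7.52, -6.94 and -7.92 on the C arrays and -6.77, -7.28, -7.82, -6.52 and -7.49 on the T arrays. This span of 1.40 was the widest of the 29 tested genes, but its spots also spread widely on an array. The SD was 0.661 between single spots, and 0.485 between C arrays for averages of 2 spots. Adar, which edits adenosine to inosine in double-stranded RNA, lay at -4.24, -5.00, -5.24, -5.12 and -5.05 on the C arrays. It lay at -5.01, -5.14, -4.96, -4.95 and -5.23 on the T arrays, and C replicate 1 was above all others. The difference of -0.13 ± 0.17 turned to 0.045 without C replicate 1.

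Rsad2, or viperin, an enzyme that makes a chain-ending nucleotide, lay at -2.61, -2.40, -3.10, -2.80 and -2.81 on the C arrays. On the T arrays it lay at -2.30, -2.25, -2.71, -2.66 and -2.78. The lowest value was that of C replicate 3 and the 2 highest were those of T replicates 1 and 2, but the groups overlapped (0.20 ± 0.15, two-sided exact permutation p = 0.206). The difference was 0.116 without C replicate 3, 0.429 within slide 1 and 0.089 within slide 2. Isg20, an exonuclease that degrades RNA, lay at -4.03, -3.93, -4.21, -4.17 and -4.10 on the C arrays. On the T arrays it lay at -4.16, -3.86, -4.00, -3.47 and -3.99, with T replicate 4 above all others. The difference was 0.19 ± 0.12 (two-sided exact permutation p = 0.159), and 0.082 without T replicate 4. It was 0.0414 within slide 1 and 0.316 within slide 2. Mx1 and Mx2, dynamin-like GTPases that trap viral parts, differed by -0.086 ± 0.10 and 0.059 ± 0.072. Oas1a, an oligoadenylate synthetase, differed by 0.048 ± 0.070, Gbp2, a GTPase that attacks microbial membranes, by -0.018 ± 0.065, and Ifit2 by 0.13 ± 0.11. Eif2ak2, the kinase that halts translation on double-stranded RNA, differed by 0.041 ± 0.076 on its brighter feature and by -0.086 ± 0.12 on its second.

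Oasl2, an oligoadenylate synthetase-like protein, had the lowest difference among the 29 genes. It lay at -2.78, -3.06, -2.96, -2.92 and -3.00 on the C arrays and at -3.22, -2.98, -3.32, -3.47 and -3.01 on the T arrays. On T replicates 1, 3 and 4 it was below all C arrays, and T replicates 2 and 5 lay within the C range. The difference was -0.26 ± 0.10, a 1.19-fold lower level in T (95% interval -0.48 to -0.03, two-sided exact permutation p = 0.0476, limma adjusted p = 0.9985). With slide as a block it was -0.237, and it was -0.167 within slide 1 and -0.307 within slide 2.

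Both tested RNA sensors had an adjusted p of 0.9985 in limma. Dhx58, which binds double-stranded RNA and tunes the other sensors, lay at -5.99, -5.72, -5.86, -5.91 and -5.47 on the C arrays. It lay at -5.67, -5.43, -5.53, -5.60 and -5.44 on the T arrays. Except for C replicate 5, all C arrays were below all T arrays. The difference was 0.26 ± 0.10, or 1.2-fold (95% interval 0.04 to 0.48, two-sided exact permutation p = 0.0476, limma adjusted p = 0.9985). This feature was dim, at a median of 46.8 units. The SD was 0.225 between its single spots on an array, and 0.203 between C arrays for averages of 2 spots. The difference was 0.309 within slide 1 and 0.171 within slide 2. Ifih1, the sensor of long double-stranded RNA, lay between -4.90 and -4.55 on the C arrays and between -5.16 and -4.46 on the T arrays, a difference of -0.076 ± 0.13 that turned to 0.122 within slide 1.

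Isg15, the ubiquitin-like protein that is attached to other proteins after interferon, varied 2-fold between arrays. It lay at -4.26, -4.21, -4.42, -3.91 and -4.03 on the C arrays and at -4.17, -4.03, -3.58, -3.95 and -4.69 on the T arrays. The highest and the lowest value both belonged to the T group, and the difference was 0.084 ± 0.18. The spread between its spots was 0.296 (SD). Usp18, the protease that removes Isg15, was dim, and its brighter feature lay at -5.79, -6.69, -6.08, -6.43 and -6.01 on the C arrays. On the T arrays it lay at -5.82, -6.05, -6.32, -6.18 and -6.64, within the C range. Its features differed by -0.0033 ± 0.19 and 0.13 ± 0.22. Trim25, a ubiquitin ligase that activates the sensor Ddx58, lay at 1.21, 1.30, 1.15, 1.16 and 1.25 on the C arrays and at 1.11, 1.13, 1.12, 1.06 and 1.14 on the T arrays. Every T array lay below every C array, with 1.14 and 1.15 the closest values, and the difference was -0.10 ± 0.053 (95% interval -0.22 to 0.01). The two-sided exact permutation p was 0.00794, not adjusted over genes and the smallest that 5 against 5 arrays can give. The limma p was 0.0762 before adjustment, and the limma adjusted p was 0.9985. Parp14, an ADP-ribosyltransferase, differed by -0.051 ± 0.067 on its brighter feature. Its second feature lay at -3.57, -3.32, -3.63, -3.64 and -3.66 on the C arrays and at -3.91, -3.65, -3.65, -3.83 and -4.27 on the T arrays. T replicates 1, 4 and 5 were below all C arrays (-0.30 ± 0.12, two-sided exact permutation p = 0.0238, limma adjusted p = 0.9985), so the pair of features disagreed in size. The spread between single spots was 0.163 (SD) for the brighter feature and 0.0302 for the second.

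The transcription factors were mostly narrow in range. Irf7, the factor that amplifies the type I response, lay at -2.45, -2.56, -2.45, -2.38 and -2.50 on the C arrays and at -2.44, -2.36, -2.44, -2.34 and -2.41 on the T arrays. It had a span of 0.22 and a difference of 0.070 ± 0.055. Irf3, which is present before infection and is activated by phosphorylation, was wider. It lay at 0.46, 0.68, 0.49, 0.76 and 1.39 on the C arrays and at 0.82, 0.51, 0.89, 1.35 and 1.01 on the T arrays, a difference of 0.16 ± 0.19. C replicate 5 and T replicate 4, both on slide 2, held its highest values. Irf9 and Stat2, the partners in the ISRE-binding complex, differed by 0.020 ± 0.095 and 0.0014 ± 0.079. Irf1, a factor of the interferon gamma response, differed by 0.046 ± 0.097 on its brighter feature and 0.022 ± 0.11 on its second. Irf5 differed by -0.022 ± 0.064 and Stat3, a factor of cytokine signalling, by -0.074 ± 0.11.

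**Figure D3:**
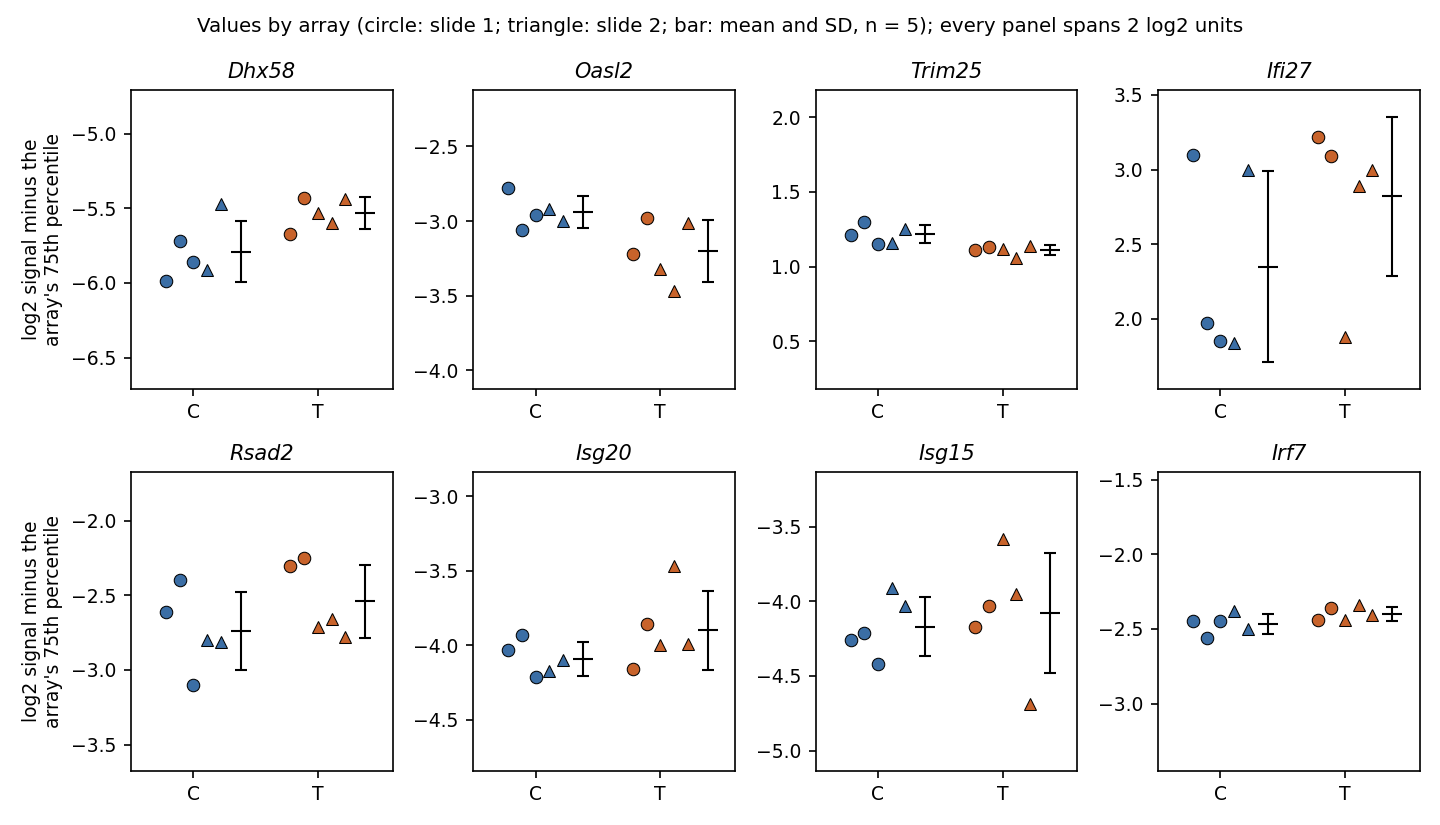
Relative log2 level of 8 genes on each array, C in blue and T in orange, circles for slide 1 and triangles for slide 2, with the mean and SD of each group (n = 5) beside the points. Every panel spans 2 log2 units; Trim25 shows no overlap between the groups within a span of 0.24, Ifi27 shows 2 levels in both groups, and Irf7 is nearly flat.

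The comparison of T with C asked whether the interferon-responsive genes of the pups' testes differed with the treatment of the father. Adjusted over all 21892 tested features, none of the 33 features of the list passed limma at 0.05, and 0% of all features did. The lowest adjusted p in the list was 0.9985. Before adjustment 3 of 33 features had a limma p under 0.05, those of Dhx58, Oasl2 and the second of Parp14, beside 3.97% of all features. Trim25 was 1 of 33 features whose groups did not overlap, beside 0.722% of all. Over the 29 genes, 17 stood higher and 12 lower in T (58.6% higher), and over all tested genes 46.1% stood higher. The median difference was 0.020, compared with -0.009 over all tested genes. By role, 10 of 16 effectors stood higher (median 0.045), 1 of 2 sensors, 1 of 4 genes of protein modification (median -0.027) and 5 of 7 transcription factors (median 0.020).

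Taken gene by gene and without adjustment over genes, 95% intervals bound the size of a difference in the tested genes. The 95% intervals of 26 of 29 genes excluded a 1.5-fold difference in either direction, and those of 28 a 2-fold difference. The 3 exceptions at 1.5-fold were Ifi27, Ifit3 and Irf3, and at 2-fold the only exception was Ifi27. These counts take the brightest tested feature of each gene. The second feature of Usp18 had an interval of -0.34 to 0.61, which also reached past 1.5-fold. The median width of the interval on either side was 0.214 for the 29 genes and 0.198 for all tested genes. Testis RNA is a mixture of cells, so fewer cells of a type and less RNA per cell cannot be told apart in these values. The direction was the same in every processing alternative for 11 of the 29 genes, among them Dhx58, Oasl2, Trim25, Rsad2, Isg20 and Ifi27.

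**Figure D4:**
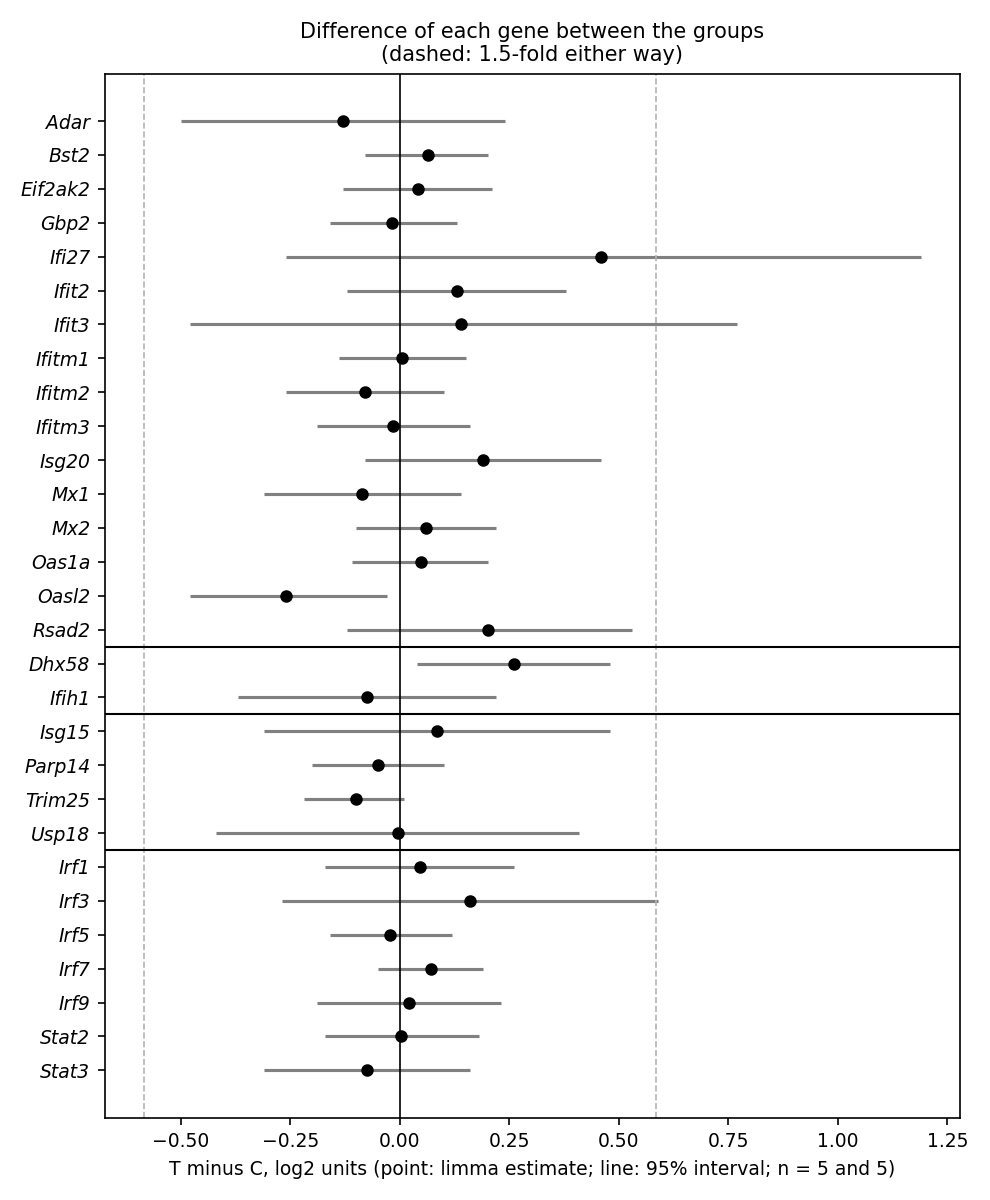
Difference between the groups (T minus C, log2 units) for the 29 tested genes, by role; points are limma estimates and lines their 95% intervals, 5 arrays per group, with dashed lines at 1.5-fold. The intervals of Dhx58 and Oasl2 exclude 0 before adjustment, and those of Ifi27, Ifit3 and Irf3 reach past the dashed line.

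With group and slide as terms, 1 of 33 features of the list had a limma adjusted p under 0.05 for the slide term, compared with 9.79% of all features. This was Stat3, lower on slide 2 by -0.275 (limma adjusted p = 0.0364). Its 5 values on slide 1 lay between 0.12 and 0.34 and its 5 values on slide 2 between -0.17 and 0.08. Irf3 was higher on slide 2 by 0.475 (limma adjusted p = 0.0588), and Ifitm3 was lower by -0.170 (limma adjusted p = 0.112).

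Genes under common control are often correlated across samples, and the 29 genes were therefore compared with each other over the 10 arrays. The median Pearson r of their 406 pairs was 0.0735, compared with 0.0258 over all pairs of 11552 genes. From the 10th to the 90th percentile r ran from -0.406 to 0.452 in the list and from -0.494 to 0.538 over all pairs. Only 4 pairs (0.985%) reached 0.7, compared with 3.34% of all pairs, and 6 (1.48%) were at -0.7 or lower, compared with 2.36%. With slide means removed the medians were 0.0767 and 0.035. Permutation tests of the 406 pairs gave 25 with an unadjusted p under 0.05 and 0 after adjustment, with a lowest adjusted p of 0.261 for Pearson's r and 0.878 for Spearman's rho. The pairs of all tested genes were not put through this test, so the count of 25 has no background share beside it.

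The pairs with the highest r were Ifitm3 with Stat3 (0.777), Ifitm2 with Stat3 (0.763), Mx2 with Isg15 (0.757) and Mx1 with Adar (0.713). Of these, Ifitm3 with Stat3 dropped to 0.296 once slide means were removed. Mx2 with Isg15 kept 0.729, with a Spearman rho of 0.830 and r of 0.851 without the 2 arrays farthest from the median of Mx2. Mx1 with Adar had 0.0692 without the 2 arrays farthest from the median of Mx1. The permutation p of Mx2 with Isg15 was 0.0128 (adjusted p = 0.648) for Pearson's r and 0.00445 (adjusted p = 0.878) for Spearman's rho. The lowest values were those of Irf7 with Trim25 (-0.865) and Ifitm3 with Irf3 (-0.863), of which the latter stood at -0.644 with slide means removed.

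Irf7 was compared with the 28 other genes as a family of its own, since it drives the amplification of the response. The median r was 0.0747 and 16 of 28 were positive. Trim25 alone passed in this family, with r = -0.865 (permutation p = 0.00135, adjusted p = 0.0378). Its Spearman rho of -0.745 did not pass (permutation p = 0.0171, adjusted p = 0.479). Adjusted over all 406 pairs of the list, r of Irf7 with Trim25 did not pass either (permutation test, adjusted p = 0.261). Without the 2 arrays farthest from the Irf7 median r was -0.62, and it was -0.848 within slide 1 and -0.864 within slide 2. Irf7 spanned 0.22 and Trim25 0.24 log2 units over the arrays, and the spread between spots was 0.0613 (SD) for Irf7 and 0.0524 for Trim25. With quantile normalization r was -0.587, with median scaling -0.571, with normexp background correction -0.733 and in the authors' values -0.678, and in these 4 settings 0 of the genes passed. Trim25 also did not pass without C replicate 1 (r = -0.872), 2 (-0.753), 3 (-0.872) or 5 (-0.841), or without T replicate 2 (-0.881), 4 (-0.818) or 5 (-0.863). The adjusted p of the second gene in the family was 0.906.

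Genes with and without the promoter element were also set side by side. The 14 genes with an ISRE match in the window, all of them tested, had a median pairwise r of 0.0764. The 8 tested genes whose window held none had 0.0412. T was higher in 8 of the 14 (median difference 0.045) and in 4 of the 8 (median -0.01). Oasl2 and Irf7, both with a match printed above, stood at -0.26 and 0.070.

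The mean of the 16 tested effectors, each centred on its own mean over the arrays, ran from -0.144 (C replicate 3) to 0.161 (C replicate 1) in the C group and from -0.094 (T replicate 3) to 0.090 (T replicate 1) in the T group. The group means were -0.024 ± 0.11 (SD, n = 5) and 0.024 ± 0.074. Without Ifi27 they were -0.010 ± 0.095 and 0.010 ± 0.050. The genes outside the list whose values most resembled this mean over the arrays were Ervfrd-1 (r = 0.922), Pum3 (0.920), Uxs1 (0.904), Spaca3 (0.899) and Agbl5 (0.894), followed by Ucn, Polr1c, Fosl2, Arfrp1 and Timm17b (0.892 to 0.870). Without Ifi27 in the mean the order changed, with Spaca3 (0.947), Polr1c (0.93) and Fosl2 (0.924) highest and Ervfrd-1 at 0.9. These are the highest of 11552 genes over 10 arrays and carry no test.

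Upstream of the listed genes, 5 interferon ligands were looked for, of which 3 were on the array, and Ifne and Ifnl3 were not matched. Ifnb1 and Ifng were well above background on 0 arrays and Ifnk on 2, so none was tested. Of 72 pathway genes outside the list, the 5 ligands included, 58 were on the array and 46 were tested. T was higher in 23 and lower in 23, with a median of -1e-04, and 0 passed an limma adjusted p under 0.05. Receptors stood higher in 3 of 4. The exception was Ifnar1, a chain of the type I receptor, which lay at -2.06, -2.33, -2.42, -2.25 and -2.48 on the C arrays and at -2.47, -2.36, -2.59, -2.58 and -2.59 on the T arrays. Its difference of -0.21 ± 0.087 had the lowest limma p of the pathway (two-sided exact permutation p = 0.0397, limma adjusted p = 0.9985).

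Kinases and signal transducers stood higher in 4 of 9 genes. Sting1, the adaptor of DNA sensing, had the second lowest p, lying between 0.00 and 0.25 on the C arrays and between 0.13 and 0.36 on the T arrays (0.14 ± 0.067, two-sided exact permutation p = 0.0476, limma adjusted p = 0.9985). Ifngr2, a chain of the interferon gamma receptor, followed with 0.15 ± 0.072 (limma p = 0.0634 before adjustment, two-sided exact permutation p = 0.0556). Inhibitors stood higher in 2 of 4, with Socs1 at 0.10 ± 0.11 and Socs3 at 0.021 ± 0.15. Of 29 further induced genes 14 stood higher and 15 lower, for example Cxcl10, a chemokine, at -0.15 ± 0.20, and Psmb8, an immunoproteasome subunit, at -0.14 ± 0.15. The pathway genes most like Irf7 over the arrays were Sting1 (r = 0.826), Ifngr2 (0.654), Sp100 (0.632) and Cmpk2 (0.559).

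Interferon-responsive genes are also expressed by immune and blood cells, whose markers were therefore measured beside them. All 15 macrophage markers were tested, 9 higher and 6 lower in T. Their mean, centred as above, lay between -0.118 and 0.062 on the C arrays and between -0.058 and 0.122 on the T arrays. Of 9 lymphocyte markers on the array, 6 were tested, while Cd3e, Cd79b and Gzmb were well above background on 4, 3 and 2 arrays. Their mean lay between -0.218 and 0.213 on the C arrays and between -0.172 and 0.216 on the T arrays. All 5 tested erythroid markers, the globins Hba-a1 and Hbb, Alas2, Slc4a1 and Ahsp, stood higher in T, none of them with a limma p under 0.05 before adjustment, and Epb42 was well above background on 0 arrays. Their mean lay between -0.691 and 0.197 on the C arrays and between -0.043 and 0.309 on the T arrays.

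Other marker lists also leaned to one side. Of 9 germ cell markers 8 stood higher in T, and of 7 tested endothelial markers 6 did. All 5 peritubular myoid markers and 7 of 9 Sertoli cell markers stood lower, and 4 of 6 tested Leydig cell markers stood higher. A limma p under 0.05 before adjustment occurred in 3 germ cell markers (Mael, Piwil2 and Tex101) and 2 endothelial markers (Pecam1 and Flt1). Over all features the share was 3.97%, and each of these markers had a limma adjusted p of 0.9985. The part of these cells in the values of the interferon-responsive genes was not tested.

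Rsad2 was set beside the 9 marker lists, a choice made after its values had been seen, so the correlations are descriptions over 10 arrays with no test. The highest was with the erythroid mean (r = 0.862, rho = 0.952), and C replicate 3 was lowest and T replicate 2 highest in both. Without the 2 arrays farthest from the Rsad2 median r was 0.720. It was 0.936 within slide 1 and 0.387 within slide 2, each of 5 arrays. The next list was endothelium (r = 0.589, rho = 0.552). The part of these cells in the difference of Rsad2 between the groups was not tested.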

How the data were processed

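Spot intensities were deposited as scanner output of Feature Extraction 10.7.3.1, per the file headers, while the submitters' processing notes name version 10.7. They are background-subtracted but not scaled between arrays. Per the labels' protocols, 100 ng of RNA were amplified and labelled with Cy3. The authors also deposited log2 values of 21220 probes, centred per probe. Set against the scanner values these columns correlated at 0.9978 to 0.9987 and ran in the same direction, while the scaling between arrays stays unknown. They served only as an alternative.

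From the log2 of the processed signal, the array's own 75th percentile was subtracted. Control spots were left out, spots with an outlier flag (494 to 745 per array) were set missing, and spots of a probe were averaged. A probe was well above background on an array if at least 0.5 of its spots were, and was tested if this held on at least 5 arrays (21892 of 30367 probes). Transcripts were matched without version to the RefSeq gene table of the GRCr8 assembly, giving 17990 probes a symbol. The array was designed on rn4 per the file headers of some arrays. The tested probe with the highest mean stood for a gene.

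T minus C was tested two-sided in R 4.3.3 with lmFit and eBayes of limma 3.58.1, with Benjamini-Hochberg adjustment over all tested probes at a threshold of 0.05. Single genes were also compared by exact permutation over all 252 splits of the arrays. Values with ± are SE for differences and SD for means. Correlations were tested by two-sided permutation with 100000 resamples. The scripts were tested on simulated data. The genes and lists described here were chosen with earlier results of these data known. All 34 genes of the list are named, and a few further pathway genes that the naming rule covers are not reported here. Values per array are given for genes with an unadjusted p under 0.05 or no overlap, the 8 with the widest range, and the 3 brightest and 3 dimmest. Irf7 was added as the reference of the correlations. The alternatives were the background correction, the scaling, the filters, the flags, the slide, the sire codes, the variance model, array weights, the choice of probe, the deposited log2 table and the omission of single arrays. The spread between spots, the effector mean without Ifi27, the comparison of Ifi27 with its neighbours and the split by promoter element were chosen after seeing the data. Promoter sequences are those of RefSeq.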

Additional observations from a re-analysis of the deposited data

Results flagged for a closer look

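In 3 of 58 sets of 5 arrays (29 genes in both groups), 1 array stood apart from the other 4 by more than Dixon's 95% limit. Chance alone sets about 1 in 20 such groups apart. Ifitm3, which restricts virus entry, was 1.46 on C replicate 5, compared with 1.72 to 1.76 on the other C arrays, and T minus C was -0.069 without it in place of -0.015. Ifi27 was 1.88 on T replicate 3, compared with 2.89 to 3.22 on the other T arrays, and T minus C was 0.70 without it in place of 0.46. Adar was -4.24 on C replicate 1, compared with -5.24 to -5.00 on the other C arrays, and T minus C was 0.045 without it in place of -0.13.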

How the results depend on the processing

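With limma, 0 listed genes and 0 of all probes had an adjusted p under 0.05 in every alternative run. The number of genes higher in T ran from 16 to 20, but the number of genes tested also changed. It was 20 of 32 without the filter on dim features, 16 of 28 well above background on all 10 arrays and 16 of 29 within slide 2. The median difference was 0.0053 with flagged spots kept, 0.00763 with normexp and 0.0642 within slide 1. The median correlation ran from -0.00298 (median scaling) to 0.137 (within slide 1). The number of genes correlated with Irf7 after adjustment was 1, and 0 with normexp, quantile normalization, median scaling and the authors' values. Leaving out each array gave 0 to 1. Normexp was run on the median spot signal, since the files give no mean. The cause of these changes was not tested.

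The direction of 18 of 29 genes turned in at least 1 alternative, and none of these differences passed the threshold in either direction. With normexp, Usp18 was 0.00207 and Stat2 -0.00678. Usp18 was also 0.000544 with quantile normalization, 0.00543 with median scaling, 0.00799 in the authors' values, and 0.11 with array weights, where Stat2 was -0.00416. With the mean of a gene's probes, Eif2ak2 was -0.0226 and Usp18 0.0645. With slide as a block, Ifitm1 was -0.006, Ifitm3 0.0192, Usp18 0.0447 and Stat2 -0.00369. Within slide 1, Ifit2 was -0.0309, Ifitm1 -0.0604, Ifitm3 0.0356, Eif2ak2 -0.0939, Ifih1 0.122, Usp18 0.248, Irf5 0.00397, Irf9 -0.168 and Stat3 0.0709. Within slide 2, Mx2 was -0.0135, Ifitm3 0.00294, Bst2 -0.068, Gbp2 0.00894, Adar 0.0383, Isg15 -0.0993 and Stat2 -0.136. With the number before R in the sire code as a term, Ifitm3 was 0.0263, Usp18 0.0194 and Irf9 -0.0145.

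Sire numbers 2, 4 and 6 occur in both groups. The deviations of same-numbered arrays correlated at -0.512 (number 2), 0.283 (number 4) and 0.194 (number 6). The arrays of number 2 were on different slides, and those of numbers 4 and 6 shared a slide. These correlations therefore cannot show whether a shared number pairs the arrays, and no label gives its meaning. With that number as a replicate block over these 6 arrays, 0 genes passed and 18 stood higher. Ifitm1 was then -0.0196, Ifitm2 0.0168, Ifitm3 0.0837, Adar 0.0206, Usp18 0.313, Irf3 -0.202, Irf9 -0.0376, Stat2 -0.00627 and Stat3 0.089.

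Leaving out each array in turn also turned the direction of 11 genes. The differences then ran from -0.204 to 0.0451 for Adar, -0.0461 to 0.00483 for Gbp2, -0.153 to 0.0238 for Ifih1, -0.022 to 0.303 for Ifit3, -0.0185 to 0.0437 for Ifitm1 and -0.0693 to 0.0135 for Ifitm3. They ran from -0.0502 to 0.014 for Irf5, -0.055 to 0.0602 for Irf9, -0.0417 to 0.235 for Isg15, -0.0357 to 0.0364 for Stat2 and -0.126 to 0.106 for Usp18. Oasl2 ran from -0.31 to -0.167 and Dhx58 from 0.129 to 0.339 over all alternatives. Signal near the background limits Ifit3, Usp18 and Dhx58 most, and with 5 arrays per group differences of about 0.2 log2 units lie within the intervals.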
